A study of Mus musculus with 46 samples.

Results

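Homozygosity for a 3bp deletion in Enh13, a remote enhancer of the testis-determining gene Sox9, was compared with heterozygosity for the same deletion in XX mouse gonads. The comparison holds 8 of the 46 libraries of the series, taken by their titles: 5 labelled XX Enh13-3bp-del-hom (homozygotes, replicates 1 to 5) and 3 labelled XX Enh13-3bp-del-het (heterozygotes, replicates 1 to 3). Each library is poly(A)-selected RNA of whole gonad from an embryo stage labelled E12.5. Both groups carry the deletion, so the heterozygotes are mutants themselves, and no wild-type library was used. The mutations were induced, and the labels name no strain, no founder and no litter. The labels do not tell whether replicates within a group came from different embryos, so p-values measure only the spread between these samples. Beside it stand 2 matched comparisons of the same size that share no library with it: XX homozygotes against heterozygotes for a 1bp insertion in Enh13 (1bp-ins), and XY homozygotes against heterozygotes for the 3bp deletion.

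At E12.5 the mouse gonad has just left its bipotential state. In the XY gonad SRY raises Sox9, and SOX9 then turns supporting cells into Sertoli cells, which secrete AMH, Desert hedgehog and FGF9. In the XX gonad SOX9 stays low, WNT4, RSPO1 and beta-catenin signalling act in supporting cells, and these become pregranulosa cells that express Foxl2 and follistatin. FGF9 and WNT4 oppose each other in this choice.

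The 8 libraries held 32715431 to 44144757 estimated counts each. Levels are given as CPM (counts scaled by library), or as TPM, which is also scaled by gene length, where genes are compared with each other. The gonadal transcription factor genes Nr5a1 and Gata4 were at 254 to 438 CPM and 380 to 564 CPM over the 8 libraries. Xist, the RNA of the inactive X chromosome, was at 33.3 to 66.6 CPM in all 8, matching the labelled sex. Markers of other tissues were not equal in all libraries. The summed level of 8 mesonephros markers, genes of the ducts and tubules that lie against the gonad, was 133 CPM in homozygote replicate 4, against 26.8 to 33.2 CPM in the other homozygotes and 43.5 to 49.8 CPM in the heterozygotes. Homozygote replicate 4 is therefore given beside part of the results, and the checks in which it stood apart are listed near the end.

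Homozygous gonads expressed the Sertoli program at a higher level than heterozygous gonads and the pregranulosa program at a lower one. Of 15979 genes tested, 4326 were called at an adjusted p under 0.05 (27.1%; edgeR quasi-likelihood test, Benjamini-Hochberg), 2232 higher in homozygotes (14.0%) and 2094 lower (13.1%). A change of at least 2-fold was seen in 325 of the genes called higher (2.03% of those tested) and in 246 of those called lower (1.54%). The median log2 fold change over all tested genes was 0.01. The counts rested on single libraries to some extent, with 1325 higher and 1328 lower without heterozygote replicate 3, 1564 and 1222 without heterozygote replicate 1, and 2698 and 2726 without homozygote replicate 4.

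**Figure D1:**
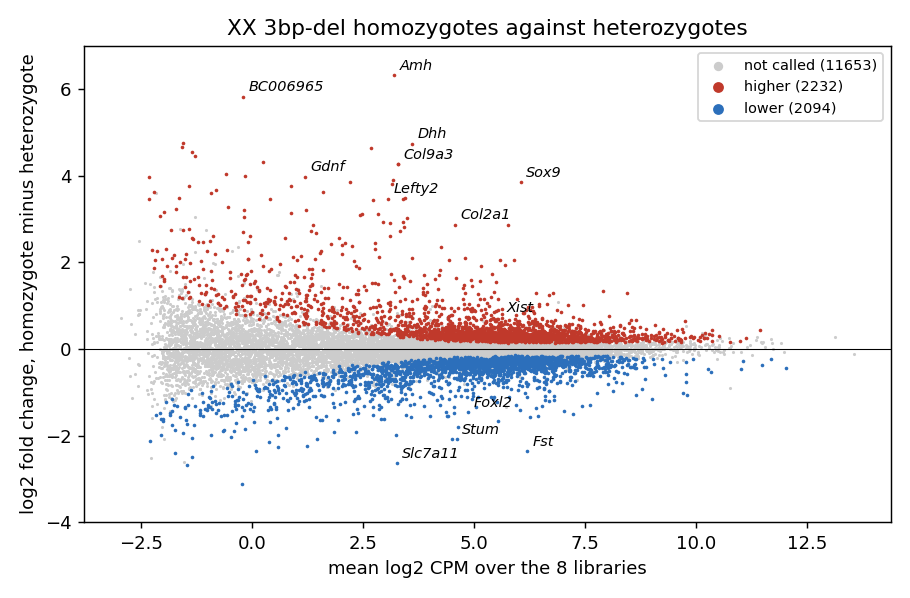
Log2 fold change of the 15979 tested genes (homozygote minus heterozygote, vertical axis) against mean log2 CPM over the 8 libraries (horizontal axis), with the 2232 genes called higher in red, the 2094 called lower in blue and the rest in grey. The vertical axis is cut, so the largest rise over all tested genes, 10.39, is not shown. Among the labelled genes Amh lies highest, at a log2 fold change of 6.32, and the largest falls are those of Slc7a11 (-2.63) and Fst (-2.35).

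Sox9, on chromosome 11 (chr11:112782224-112787760, plus strand, GRCm38), was at 14.1, 11.1 and 12.2 CPM in the heterozygotes. It was at 194, 212, 172, 148.5 and 178 CPM in the homozygotes. The groups did not come near each other, and homozygote replicate 4 was the lowest of the 5. Sox9 was 14.5-fold higher in homozygotes by group means (181 ± 23.9 against 12.47 ± 1.49 CPM, SD, n = 5 and 3), a log2 fold change of 3.85 ± 0.13 (SE; edgeR adjusted p = 4.83e-07). In the same units the XY 3bp-del libraries stood at 160 to 210 CPM in heterozygotes and 173 to 226 CPM in homozygotes, so the XX homozygotes fell in or just under the XY range for Sox9.

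Of 7 tested genes in the list of Sox9 neighbours 1 was higher, BC006965, and 0 were lower, against 14.0% and 13.1% of all tested genes. BC006965 was at 0.111, 0.0301 and 0.0249 CPM in heterozygotes and at 5.95, 2.97, 3.03, 2.0 and 2.63 CPM in homozygotes. Its log2 fold change of 5.82 ± 0.56 (edgeR adjusted p = 8.04e-05) rests on very few heterozygote reads, and its size depends on the prior count of the fit. Slc39a11, a zinc transporter gene farther along the chromosome, was at 22.9 ± 2.26 CPM in heterozygotes and 20.7 ± 2.83 CPM in homozygotes and was not called. Slc39a11 overlaps Cog1 on the other strand, and the handling of strand in the counts is not given.

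Sertoli genes rose as a group. All gene lists here were chosen with earlier results of these data known, so their counts describe and do not test. Of 23 tested genes in the Sertoli list 20 were higher and 0 lower, against 14.0% and 13.1% of all tested genes. The median log2 fold change was 2.56 against 0.01 over all genes. Without homozygote replicate 4 the list again had 20 higher and 0 lower (median 2.73), and without heterozygote replicate 3 it had 16 higher. The summed level of the list was 318 to 353 CPM in heterozygotes and 770 to 1309 CPM in homozygotes, lowest in replicate 4. In the XY 3bp-del libraries it was 2218 to 3404 CPM, above every XX homozygote. In bulk RNA, fewer cells of a type and less RNA per cell cannot be told apart, and the same holds for more cells and more RNA.

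Amh, which encodes the hormone that removes the female ducts, was at 0.829, 0.451 and 0.597 CPM in the heterozygotes. It was at 88.7, 36.5, 72.3, 21.1 and 35.7 CPM in the homozygotes. All homozygotes were far above all heterozygotes but spread widely among themselves, replicate 1 the highest and replicate 4 the lowest. The log2 fold change of Amh was 6.32 ± 0.76 (edgeR adjusted p = 0.00174). In XY 3bp-del gonads Amh stood at 222 to 1053 CPM, above every XX homozygote.

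Dhh, the Hedgehog ligand of Sertoli cells, was at 1.66, 1.56 and 1.62 CPM in heterozygotes. It was at 69.8, 36.4, 54.4, 21.5 and 36.6 CPM in homozygotes, again highest in replicate 1 and lowest in replicate 4. Its log2 fold change was 4.75 ± 0.48 (edgeR adjusted p = 0.000693), and the XY libraries were again higher, at 176 to 263 CPM. Fgf9, the growth factor that sustains Sox9 and opposes Wnt4, was at 3.07, 2.675 and 3.63 CPM in heterozygotes and at 25.1, 22.6, 21.6, 19.5 and 22.7 CPM in homozygotes. Unlike Amh and Dhh, Fgf9 varied little among homozygotes, and these lay inside the XY range of 16.2 to 29.3 CPM. Its log2 fold change was 2.82 ± 0.12 (edgeR adjusted p = 5.22e-07).

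The SOX9 relatives Sox8 and Sox10, which act beside it in Sertoli cells, rose with it. Sox10 was at 0.885, 0.992 and 0.646 CPM in heterozygotes and at 24.9, 21.5, 24.8, 16.2 and 18.3 CPM in homozygotes (log2 fold change 4.65 ± 0.21, edgeR adjusted p = 6.8e-07). Sox8 rose by 3.12 ± 0.26. The secreted factor gene Gdnf, which maintains spermatogonial stem cells in the later testis, was at 0.391 ± 0.0763 CPM in heterozygotes and 6.27 ± 1.62 CPM in homozygotes (3.98 ± 0.28). Cyp26b1, whose enzyme degrades retinoic acid and so keeps germ cells from meiosis in the testis, went from 19.98 ± 4.64 to 84.0 ± 18.9 CPM (2.07 ± 0.23). Ptgds, which makes prostaglandin D2, a signal that feeds back on Sertoli differentiation, rose by 2.56 ± 0.37.

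Other Sertoli markers rose over a wide range. Tesc rose by 3.92 ± 0.31, Mmd2 by 3.80 ± 0.25, Cst9 by 3.48 ± 0.35, Aard by 2.87 ± 0.27, Serpine2 by 1.93 ± 0.17 and Mro by 1.56 ± 0.19 on the log2 scale. Per length, the most abundant of these in homozygotes was Aard at 134 TPM, above Cst9 at 74.1 TPM, Sox9 at 61.7 TPM and Amh at 45.5 TPM. Small rises were seen for Inhbb, an activin and inhibin subunit (0.67 ± 0.16, edgeR adjusted p = 0.015), and for Dmrt1, a keeper of male identity after birth (0.39 ± 0.11, edgeR adjusted p = 0.0244). For both genes homozygote replicate 4 lay inside the range of the heterozygotes. The Inhbb call was lost without heterozygote replicate 3 (edgeR adjusted p = 0.0659). The Dmrt1 call was lost without heterozygote replicate 1 or 3 or homozygote replicate 1 or 5 (edgeR adjusted p = 0.0867, 0.111, 0.0526 and 0.0523). Cldn11, a tight junction gene of the later blood-testis barrier, was at 15.2 ± 2.33 CPM in heterozygotes and 13.8 ± 1.33 CPM in homozygotes and was not called.

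**Figure D2:**
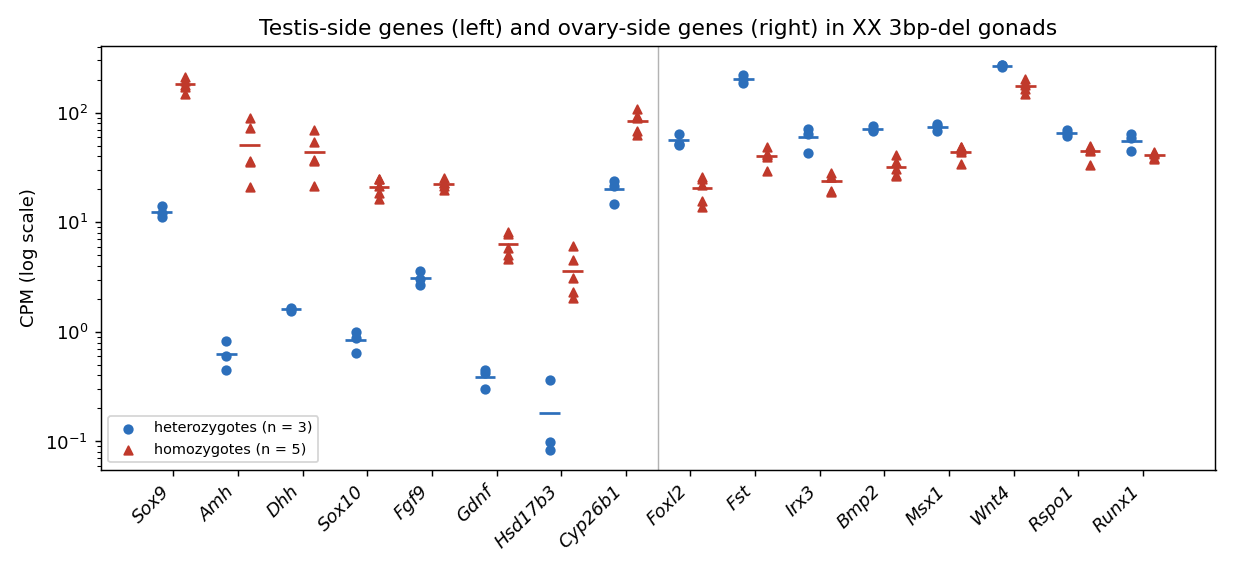
CPM in each of the 8 libraries (log axis) for 8 testis-side genes (left of the line) and 8 ovary-side genes (right), with heterozygotes as blue circles, homozygotes as red triangles and group means as bars. The groups are separate for all 16 genes, and the homozygotes spread most for Amh (21.1 to 88.7 CPM) and Dhh (21.5 to 69.8 CPM).

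The pregranulosa list moved the other way, and by less. Of its 18 tested genes 11 were lower and 0 higher, against 13.1% and 14.0% of all tested genes. The median log2 fold change was -0.57. Without homozygote replicate 4, 12 were lower and 1, Lgr5, was higher. The summed level of the list was 1166 to 1284 CPM in heterozygotes and 671 to 782 CPM in homozygotes. In the XY 3bp-del libraries it was 263 to 316 CPM, below every XX homozygote.

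Fst, which encodes the activin-binding protein follistatin, was at 222, 201 and 186 CPM in heterozygotes and at 40.9, 39.1, 42.2, 29.4 and 48.3 CPM in homozygotes. It had the largest fall of the list, by 2.35 ± 0.13 on the log2 scale (edgeR adjusted p = 7.83e-06). Foxl2, the transcription factor that holds granulosa identity, was at 64.5, 51.8 and 51.15 CPM in heterozygotes and at 21.95, 15.7, 26.1, 13.8 and 25.0 CPM in homozygotes. The groups were separate, with Foxl2 lower by 1.45 ± 0.21 on the log2 scale (edgeR adjusted p = 0.00209). Homozygotes still expressed Foxl2 well above the 0.767 to 1.36 CPM of the XY 3bp-del libraries.

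Other ovary-side transcription factors and signals were reduced to a lesser degree. The log2 fold change was -1.34 ± 0.19 for the homeobox gene Irx3, -1.16 ± 0.13 for the BMP ligand gene Bmp2, -0.76 ± 0.10 for the homeobox gene Msx1 and -0.44 ± 0.10 for Runx1, a partner of Foxl2 in granulosa cells. Wnt4, the main WNT ligand of the early ovary, was at 261, 271 and 271 CPM in heterozygotes and at 147, 165, 178, 202 and 185 CPM in homozygotes. The groups were separate, with a log2 fold change of -0.61 ± 0.09 (edgeR adjusted p = 0.000835), and the XY libraries were lower still at 35.5 to 70.0 CPM. Rspo1, the secreted amplifier of WNT signalling, changed by -0.57 ± 0.11. In 1 fit over the 10 mutant groups, which share an estimate of the spread, the calls of Wnt4, Msx1 and Runx1 were lost (edgeR adjusted p = 0.0972, 0.0753 and 0.286), and that of Runx1 also with the length offset (0.0567).

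Readouts of beta-catenin were uneven. Lef1, a transcription factor of the pathway, was at 70.3 ± 3.61 CPM in heterozygotes and 49.6 ± 3.89 CPM in homozygotes (-0.51 ± 0.07). Axin2, a feedback inhibitor, changed by -0.47 ± 0.13 (edgeR adjusted p = 0.0205), a call lost without heterozygote replicate 1 or 3 (edgeR adjusted p = 0.092 and 0.0879). Sp5, a direct WNT target, was at 57.5, 33.6 and 52.4 CPM in heterozygotes and 25.9 to 40.2 CPM in homozygotes and was not called (edgeR adjusted p = 0.0701). It was called without heterozygote replicate 2 or homozygote replicate 5 (edgeR adjusted p = 0.0133 and 0.0479) and by DESeq2 (adjusted p = 0.00616). Lgr5, a receptor for R-spondins, was at 13.7 to 18.5 CPM in heterozygotes and 13.8 to 25.0 CPM in homozygotes, and was called higher without homozygote replicate 4 (0.44, edgeR adjusted p = 0.00824) and with the replicate block (0.49, edgeR adjusted p = 0.0101).

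**Figure D3:**
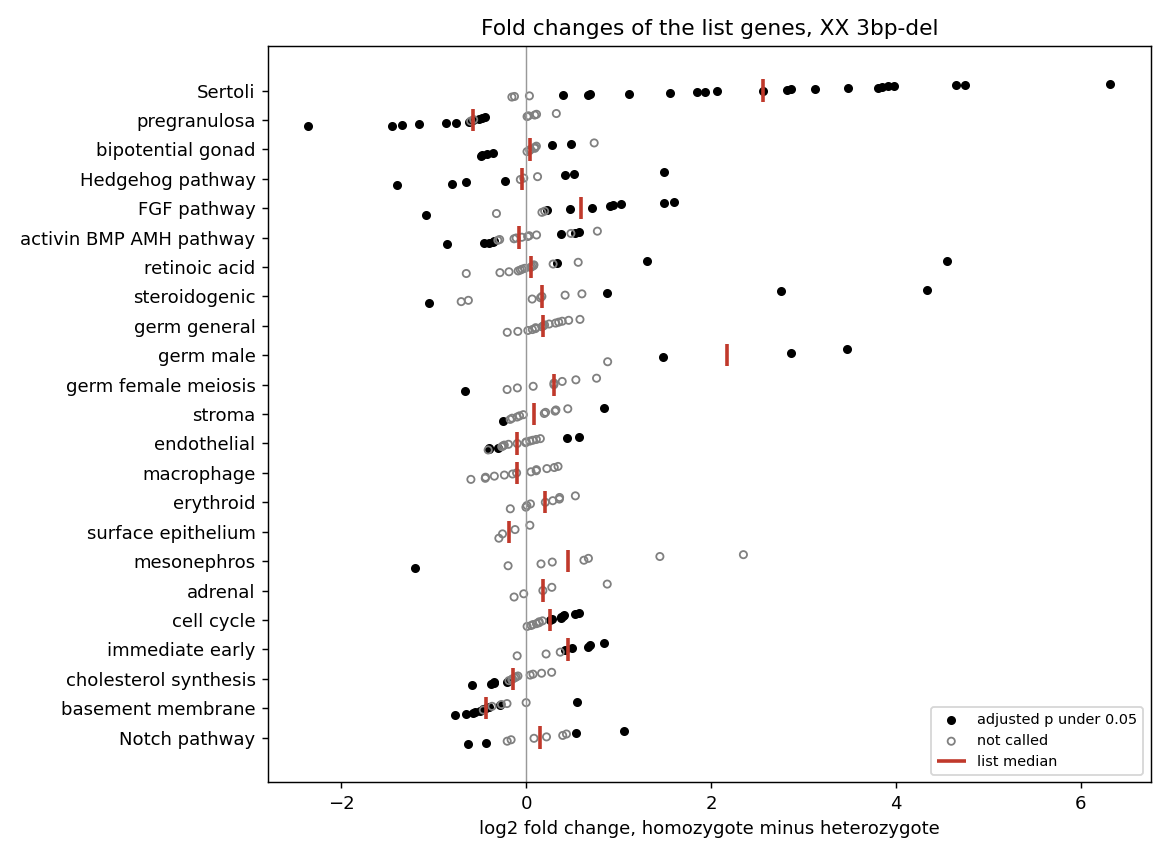
Log2 fold change (homozygote minus heterozygote, horizontal axis) of each tested gene in 23 gene lists (rows), with called genes filled, uncalled genes open and the list median as a red bar. The Sertoli median lies at 2.56 and the pregranulosa median at -0.57, while most other lists straddle 0.

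Promoters are shown for 4 of the genes that moved: Dhh and Fgf9, Sertoli signals that rose, Cbln4, among the largest rises outside the lists and with a SOX core, and Foxl2, which fell. Each is the 250 bases before the annotated start, 5′ to 3′ on the gene's strand, from RefSeq (GRCm38.p6): Dhh chr15:98898541-98898790 (minus), Fgf9 chr14:58072436-58072685 (plus), Cbln4 chr2:172043467-172043716 (minus) and Foxl2 chr9:98955357-98955606 (plus). Capitals mark matches to a SOX core (ACAAT, or ATTGT on the other strand), an NR5A1 site (AAGGTCA or TGACCTT) or a GATA site (AGATAA or TTATCT).
Dhh: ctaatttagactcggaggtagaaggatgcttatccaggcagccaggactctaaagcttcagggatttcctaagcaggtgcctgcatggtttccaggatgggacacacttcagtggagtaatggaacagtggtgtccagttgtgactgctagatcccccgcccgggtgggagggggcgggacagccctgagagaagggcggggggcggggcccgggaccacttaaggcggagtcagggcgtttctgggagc
Fgf9: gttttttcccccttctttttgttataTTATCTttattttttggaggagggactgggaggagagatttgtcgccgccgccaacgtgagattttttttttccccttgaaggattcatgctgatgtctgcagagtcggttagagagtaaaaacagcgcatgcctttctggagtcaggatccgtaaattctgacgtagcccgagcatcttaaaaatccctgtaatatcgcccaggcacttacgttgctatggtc
Cbln4: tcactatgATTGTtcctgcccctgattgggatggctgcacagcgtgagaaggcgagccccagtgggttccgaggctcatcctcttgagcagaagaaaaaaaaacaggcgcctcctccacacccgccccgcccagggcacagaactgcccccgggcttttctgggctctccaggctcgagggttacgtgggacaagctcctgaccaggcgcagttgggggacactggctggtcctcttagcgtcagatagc
Foxl2: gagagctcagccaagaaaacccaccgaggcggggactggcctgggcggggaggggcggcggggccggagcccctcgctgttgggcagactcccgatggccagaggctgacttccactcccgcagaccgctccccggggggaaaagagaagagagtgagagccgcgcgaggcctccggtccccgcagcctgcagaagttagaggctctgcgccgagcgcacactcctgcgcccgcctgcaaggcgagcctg

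The SOX core was found in 0 of the 15 Sertoli genes with a promoter in the table, in 1 of 12 pregranulosa genes, in 3 of 9 of the largest risers and in 2 of 11 of the largest falls, against 28.3% of all 27025 promoters. Cbln4 is shown because it holds the SOX core. The NR5A1 site stood in 1 of the 15 Sertoli promoters (4.05% of all promoters), and the GATA site in 1 of the 15, that of Fgf9 (10.3% of all promoters). A match is only a string of letters, and its absence from this window says nothing about the factor. Sox9, Amh, Sox10, Fst and Bmp2 have no entry in the table.

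Beyond the lists, the largest rises included genes of cartilage-type matrix, a group that SOX9 controls in the skeleton. Col9a3 was at 1.77, 1.23 and 1.74 CPM in heterozygotes and at 44.3, 24.0, 37.75, 16.04 and 31.9 CPM in homozygotes (log2 fold change 4.26 ± 0.41, edgeR adjusted p = 0.000486). Col9a1 rose by 3.10 ± 0.35 and Col2a1, the main collagen of cartilage, by 2.87 ± 0.28, from 6.99 ± 0.708 to 51.5 ± 15.7 CPM. The cerebellin genes Cbln4 and Cbln1, which encode secreted synapse organizers of the brain, rose by 3.47 ± 0.34 and 3.03 ± 0.41. Cbln4 was at 2.57, 2.35 and 2.26 CPM in heterozygotes and at 39.8, 27.5, 30.5, 16.4 and 19.3 CPM in homozygotes, so that its libraries did not overlap.

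The other genes of this set were Derpc (4.27 ± 0.32), the phosphatase gene Dusp15 (3.86 ± 0.32), the metallothionein Mt3 (3.62 ± 0.28), the kinesin Kif19a (3.44 ± 0.20), Ankrd63 (3.22 ± 0.38), the WNT receptor gene Fzd9 (3.13 ± 0.26), Islr2 (2.94 ± 0.17), the prokineticin receptor gene Prokr2 (2.93 ± 0.42), Tox2 (2.91 ± 0.18) and the chymotrypsinogen gene Ctrb1 (2.72 ± 0.39). These 15 genes were chosen for their size of change and for no overlap between groups, so their direction is given by that choice. Over all tested genes every homozygote was above every heterozygote in 15.8% and below in 14.7%. Derpc and Insyn2b are not in the annotation used for overlaps, Islr2 overlaps Islr, and the metallothionein and Gbp2b belong to families of like sequence, so the split of their reads is uncertain. Homozygote replicate 4 was the lowest homozygote for Col9a3, Col9a1, Col2a1, Cbln4, Cbln1 and Amh.

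The largest falls outside the lists were led by Slc7a11, the cystine transporter gene, which was at 31.5, 33.8 and 24.2 CPM in heterozygotes and at 4.39, 5.09, 4.96, 4.66 and 5.03 CPM in homozygotes. Its homozygotes were close to each other, and the log2 fold change was -2.63 ± 0.11 (edgeR adjusted p = 5.08e-07). Genes of receptors and channels stood among the falls, with -2.24 ± 0.29 for the neuromedin U receptor Nmur2, -1.91 ± 0.22 for Gpr55, -1.67 ± 0.15 for the muscarinic receptor Chrm4, -1.64 ± 0.18 for the angiotensin receptor Agtr1a, -1.63 ± 0.14 for the calcium channel Cacna1i and -1.61 ± 0.18 for the potassium channel subunit Kcng4. Chrm4 was the most abundant of these in heterozygotes, at 108 TPM, and was at 32.6 TPM in homozygotes.

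Stum fell by 2.08 ± 0.12, from 60.5 ± 6.47 to 14.4 ± 2.13 CPM, and the ubiquitin ligase gene Rnf152 by 2.08 ± 0.18. The transcription cofactor gene Vgll2 fell by 2.07 ± 0.29, Insyn2b by 1.99 ± 0.11, Wfdc1 by 1.91 ± 0.21, the chondroitin sulfate enzyme gene Csgalnact1 by 1.79 ± 0.13 and the guanylate-binding protein gene Gbp2b by 1.65 ± 0.21. Bmp5, a BMP ligand gene, fell by 1.61 ± 0.17, from 15.1 ± 3.24 to 4.99 ± 0.882 CPM, in the same direction as Bmp2.

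Genes downstream of FGF signalling rose with Fgf9. Of 12 tested genes in the FGF list 8 were higher and 1 lower (median 0.59), against 14.0% and 13.1% of all tested genes. The ETS factor genes Etv4 and Etv5, transcribed in answer to FGF receptors, rose by 1.60 ± 0.20 and 1.03 ± 0.14. Etv4 was at 11.5, 21.5 and 13.6 CPM in heterozygotes and at 54.8, 48.8, 51.0, 38.9 and 42.3 CPM in homozygotes, with no overlap.

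The feedback inhibitors of the pathway rose as well. Spry4 was at 12.2, 17.8 and 13.1 CPM in heterozygotes and 36.0 to 44.0 CPM in homozygotes (1.49 ± 0.12, edgeR adjusted p = 3.01e-05), and Dusp6, a phosphatase of ERK, went from 48.7 ± 3.73 to 91.4 ± 9.07 CPM (0.90 ± 0.09). Spry1 rose by 0.94 ± 0.22, a call lost without heterozygote replicate 1 or 3 (edgeR adjusted p = 0.068 and 0.0589). The receptor gene Fgfr2 was the exception. It was at 195, 168 and 172 CPM in heterozygotes and at 74.7, 82.0, 87.1, 81.6 and 96.9 CPM in homozygotes, a log2 fold change of -1.08 ± 0.08 (edgeR adjusted p = 1.87e-05). Fgfr1 was at 115 ± 20.8 and 133 ± 7.51 CPM and was not called.

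Of 10 Hedgehog genes 3 were higher and 4 lower, against 14.0% and 13.1% of all tested genes. The target and transcription factor gene Gli1 was at 3.15, 2.86 and 5.47 CPM in heterozygotes and at 10.6, 7.98, 11.3, 15.3 and 9.16 CPM in homozygotes, highest in replicate 4 (1.496 ± 0.27, edgeR adjusted p = 0.0039). The mediator gene Gli2 rose by 0.51 ± 0.10. The receptor and target gene Ptch1 changed by 0.42 ± 0.10 (edgeR adjusted p = 0.0132), a call lost without heterozygote replicate 1 and in the fit over the 10 mutant groups (edgeR adjusted p = 0.0556 and 0.404). The co-receptor genes Cdon and Boc fell by 0.80 ± 0.07 and 0.65 ± 0.08.

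Hhip, a decoy receptor gene that Hedgehog signalling normally induces, was at 2.90, 1.35 and 3.08 CPM in heterozygotes and at 0.933, 1.31, 0.637, 1.35 and 0.419 CPM in homozygotes, a log2 fold change of -1.40 ± 0.39 (edgeR adjusted p = 0.0219). The groups touched, and the call was lost without heterozygote replicate 1 or 3 or homozygote replicate 3 (edgeR adjusted p = 0.0884, 0.102 and 0.0516), in the fit over the 10 mutant groups (0.522) and with the replicate block (0.0553). In XX 1bp-ins the Hhip homozygotes ran from 0.533 to 94.2 CPM, and the difference between the alleles was not called (edgeR adjusted p = 0.582).

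Of 18 activin, BMP and AMH pathway genes 3 were higher and 5 lower, against 14.0% and 13.1% of all tested genes. Smad7, an inhibitor of the pathway, was at 30.7 to 34.1 CPM in heterozygotes and 45.7 to 49.7 CPM in homozygotes (0.58 ± 0.06, edgeR adjusted p = 9.47e-05), and the ligand gene Bmp7 rose by 0.53 ± 0.09. The type I receptor genes Bmpr1b and Bmpr1a fell by 0.86 ± 0.16 and 0.45 ± 0.06. Amhr2, the receptor through which AMH acts, was at 241 ± 36.8 and 197 ± 37.4 CPM and was not called.

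Genes of the bipotential gonad moved by small amounts, from -0.484 to 0.736 on the log2 scale. Of 13 tested, 2 were higher and 4 lower, against 14.0% and 13.1% of all tested genes. Nr5a1 changed by 0.49 ± 0.12 (edgeR adjusted p = 0.013) and Gata4 by 0.28 ± 0.09 (edgeR adjusted p = 0.0447), with homozygote replicate 4 inside the heterozygote range for both. The Nr5a1 call was lost without heterozygote replicate 3 (edgeR adjusted p = 0.0631), and the Gata4 call without heterozygote replicate 2 or 3 or homozygote replicate 1, 2, 3 or 5 (edgeR adjusted p = 0.127, 0.175, 0.0915, 0.0749, 0.0914 and 0.0754), with RLE normalization (0.0536) or with the length offset (0.0526). The homeobox genes Emx2 and Lhx9, needed for the genital ridge to form, fell by 0.48 ± 0.07 and 0.43 ± 0.09, and the insulin receptor gene Insr by 0.48 ± 0.08.

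Retinoic acid and steroid genes held a few large changes among many small ones. In the retinoic acid list 3 of 16 were higher, near the 14.0% of all tested genes, and 0 were lower, against 13.1%. The synthesis gene Aldh1a1 was at 68.5, 46.6 and 75.4 CPM in heterozygotes and at 195, 149, 184, 111 and 150 CPM in homozygotes (1.30 ± 0.22, edgeR adjusted p = 0.00469). Cyp26a1, another degrading enzyme gene, was at 0.0249 to 0.0553 CPM in heterozygotes and 0.666 to 1.20 CPM in homozygotes, and the receptor gene Rara rose by 0.34 ± 0.07.

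In the steroidogenic list 3 of 11 were higher and 1 lower, against 14.0% and 13.1% of all tested genes. Hsd17b3, whose enzyme makes testosterone and which Sertoli cells express in the mouse fetus, was at 0.0829, 0.361 and 0.0995 CPM in heterozygotes and at 6.09, 3.13, 4.53, 2.04 and 2.33 CPM in homozygotes (4.33 ± 0.57, edgeR adjusted p = 0.000695). Star, the cholesterol carrier of steroid cells, went from 7.02 ± 0.493 to 13.0 ± 1.05 CPM (0.88 ± 0.10). Cyp19a1, the aromatase gene, rose by 2.75 ± 0.48 at levels under 1 CPM. Cyp11a1, the first enzyme of steroid synthesis and a Leydig cell marker, was at 5.78, 12.2 and 6.66 CPM in heterozygotes and 4.04 to 8.82 CPM in homozygotes. It was not called (edgeR adjusted p = 0.174) but was lower without homozygote replicate 2 (-0.87, edgeR adjusted p = 0.0253).

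Germ cell genes did not change as a group. By edgeR 0 of the 15 general germ cell genes were called, and 0 were called by DESeq2. At an unadjusted p under 0.05 by edgeR there were 0, against 6102 of all 15979 genes tested. Pou5f1, the pluripotency factor, was at 48.2, 107 and 66.5 CPM in heterozygotes and 68.4 to 127 CPM in homozygotes. Heterozygote replicate 2 was the highest of its group for Pou5f1 and Utf1, and without it Utf1, a chromatin factor of germ cells, was called higher (0.98, edgeR adjusted p = 0.00542). In the male germ cell list 3 of the 4 tested genes were higher, against 14.0% of all tested genes. Lefty2, a Nodal inhibitor gene, was at 1.05, 3.46 and 1.52 CPM in heterozygotes and at 38.3, 18.8, 16.8, 15.8 and 21.3 CPM in homozygotes (3.47 ± 0.50, edgeR adjusted p = 0.00285), a call lost with the replicate block (0.0653).

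Lefty1 rose by 2.87 ± 0.31. Nodal itself was at 0.774, 3.31 and 1.24 CPM in heterozygotes and 1.87 to 5.08 CPM in homozygotes, was not called (edgeR adjusted p = 0.202), and was called higher without heterozygote replicate 2 (1.67, edgeR adjusted p = 0.014). Of 9 female meiosis genes 1 was lower, near the 13.1% of all tested genes, and 0 were higher. The lower one was Rec8, a meiotic cohesin gene, at -0.66 ± 0.13, a call lost in the fit over the 10 mutant groups (edgeR adjusted p = 0.0653). Meiosis starts in the ovary after this stage, and 9 of the 12 listed meiosis genes and 4 of the 7 listed male germ cell genes passed the filter on low counts.

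Among other cell types, the markers were mostly level. By edgeR 0 of 13 macrophage, 0 of 9 erythroid, 0 of 4 surface epithelium and 0 of 5 adrenal genes were called. At an unadjusted p under 0.05 there were 1, 1, 1 and 0, against 6102 of all 15979 genes tested. DESeq2 called 1 macrophage and 1 surface epithelium gene lower. In the stroma list 1 of 12 was higher and 1 lower, against 14.0% and 13.1% of all tested genes. The higher one was Tcf21, a transcription factor of interstitial cells, which went from 86.4 ± 9.88 to 156 ± 18.8 CPM (0.85 ± 0.10, edgeR adjusted p = 0.000342). In the endothelial list 2 of 17 were higher and 3 lower, near the 14.0% and 13.1% of all tested genes. Efnb2, a marker of arterial vessels, was at 68.4 to 71.3 CPM in heterozygotes and 98.5 to 108 CPM in homozygotes (0.57 ± 0.05, edgeR adjusted p = 5.63e-05). Sox18 rose by 0.44 ± 0.08, while the VEGF receptor gene Kdr fell by 0.40 ± 0.07.

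In the mesonephros list 1 of 8 was lower, near the 13.1% of all tested genes, and 0 were higher. The list median was 0.454, with a largest rise of 2.35 that was not called. Ret, the GDNF receptor of the nephric duct, was at 9.45, 5.59 and 9.996 CPM in heterozygotes and at 2.58, 3.98, 3.64, 4.15 and 3.86 CPM in homozygotes (-1.20 ± 0.21, edgeR adjusted p = 0.00206), a call lost in the fit over the 10 mutant groups (0.0535). Cdh16, a kidney cadherin gene, was at 4.42, 8.63 and 4.30 CPM in heterozygotes and at 0.110, 2.18, 1.39, 41.0 and 0.509 CPM in homozygotes. Replicate 4 alone set its mean, and without that library the log2 fold change turned from 0.67 ± 1.65 to -2.46, not called in either case (edgeR adjusted p = 0.812 and 0.051). Lhx1 was not called, but it was called higher in the fit over the 10 mutant groups (1.43, edgeR adjusted p = 0.0203) and by DESeq2 (1.43, adjusted p = 0.005). The part of mesonephric tissue in the other results was not tested beyond leaving out replicate 4.

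**Figure D4:**
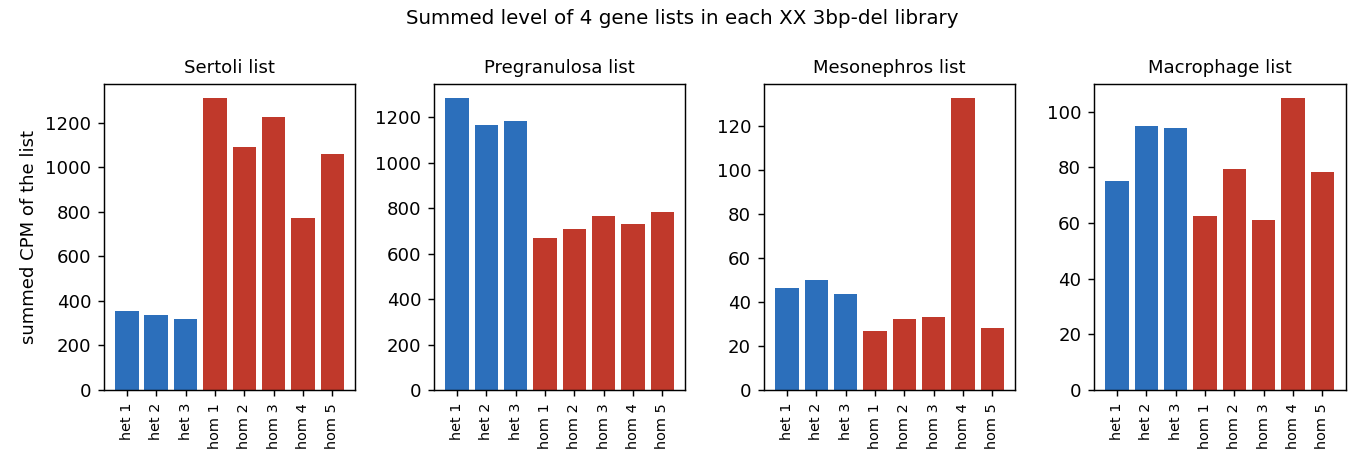
Summed CPM of 4 gene lists in each library (bars from 0; heterozygotes blue, homozygotes red). The Sertoli list is higher and the pregranulosa list lower in all 5 homozygotes, and homozygote replicate 4 has the lowest Sertoli sum of its group (770 CPM) and the highest mesonephros sum (133 CPM).

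Several broad lists moved by small amounts. Over all tested genes 14.0% were higher and 13.1% lower. In the cell cycle list 8 of 15 were higher and 0 lower (median 0.25). Cdk1, the mitotic kinase gene, was at 80.7, 93.5 and 84.1 CPM in heterozygotes and 115 to 133 CPM in homozygotes (0.53 ± 0.07, edgeR adjusted p = 0.000427), and Birc5 and Pcna rose by 0.41 ± 0.07 and 0.40 ± 0.08. The proliferation marker Mki67 was at 114, 180 and 199 CPM in heterozygotes and 230 to 263 CPM in homozygotes (0.57 ± 0.15, edgeR adjusted p = 0.0222), a call lost without homozygote replicate 1, in the fit over the 10 mutant groups and with the replicate block (edgeR adjusted p = 0.0525, 0.0732 and 0.0952). Of 8 immediate early genes, which answer to handling as well as to signals, 5 were higher and 0 lower, among them Jun (0.84 ± 0.16) and Ier2 (0.69 ± 0.09). Junb rose by 0.67 ± 0.15 and overlaps Prdx2 on the other strand.

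Of 15 cholesterol synthesis genes 5 were lower and 0 higher, against 13.1% and 14.0% of all tested genes. Homozygote replicate 4 was the lowest homozygote for this list in mean log2 CPM (5.62). In XX 1bp-ins the list went the other way, with 4 higher and 0 lower, against 8.49% and 8.76% of all genes tested there. The list median was 0.172 in 1bp-ins against -0.147 in 3bp-del. The difference between the alleles was called for 0 of the 15. At an unadjusted p under 0.05 there were 8, against 1574 of 16396 over all genes. In 3bp-del the isomerase gene Idi1 fell by 0.38 ± 0.06 on the log2 scale. Of 15 basement membrane genes 9 were lower and 1 higher, against 13.1% and 14.0% of all tested genes. The laminin genes Lama1, Lamb2 and Lamc1 fell by 0.65 ± 0.07, 0.58 ± 0.07 and 0.50 ± 0.06, and the heparan sulfate proteoglycan gene Agrn by 0.55 ± 0.10. Col18a1 was the exception, at 424 ± 18.7 and 626 ± 73.3 CPM (0.55 ± 0.09), a call lost in the fit over the 10 mutant groups (edgeR adjusted p = 0.13).

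These small shifts stand beside a trend with transcript length. Across the 15979 tested genes, the Spearman correlation of log2 fold change with relative length was -0.277 (a description over genes that share the same 8 libraries). The median log2 fold change went from 0.126 in the shortest of 5 equal bins of genes to -0.127 in the longest. The basement membrane genes had a median length 0.98 log2 units above that of the median gene, and with a length offset per library 7 of 15 were lower and 1 higher. The same trend was seen in XX 1bp-ins (-0.275) and in XY 3bp-del (-0.284), and its part in small fold changes was not tested further.

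Of 10 Notch genes 2 were higher and 2 lower, near the 14.0% and 13.1% of all tested genes. Hes1, a target of Notch and other signals, was at 25.3, 22.2 and 27.2 CPM in heterozygotes and at 57.6, 47.6, 60.8, 47.2 and 47.8 CPM in homozygotes (1.06 ± 0.10, edgeR adjusted p = 8.41e-05). The receptor genes Notch3 and Notch2 fell by 0.63 ± 0.11 and 0.43 ± 0.08. Of 591 tested genes on the X chromosome 56 were higher and 116 lower (29.1% called), against 2122 higher and 1945 lower of 14995 autosomal genes (27.1% called). On the X chromosome the genes called lower outnumbered those called higher, while on the autosomes more were higher, a contrast that was not tested.

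The homozygotes were also compared among themselves. Over 10533 genes with a mean log2 CPM of at least 3, the median range was 0.254 log2 units across the 5 homozygotes and 0.173 across the 3 heterozygotes, which are fewer. A range of at least 2-fold across homozygotes was found for 142 of these genes (1.35%), and replicate 4 was the highest library for 85 of them (59.9%). The widest were H2ac24, Agtr2, Fam220a, Tbx3, Cthrc1, Hoxa5, Ntrk2 and Rarb, with ranges from 2.46 to 4.51 log2 units.

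The 1bp insertion is the other Enh13 allele with XX libraries of both zygosities. Between its homozygotes and heterozygotes 2749 of 15933 genes were called (17.3%), 1353 higher (8.49%) and 1396 lower (8.76%). Of these, 1778 were called in the same direction in the 3bp deletion, which is 41.1% of the 3bp-del calls and 64.7% of the 1bp-ins calls, and 8 were called in opposite directions. The comparisons share no library, and the log2 fold changes correlated with r = 0.743 across 15734 genes, which are not independent replicates. Sox9 itself changed by 3.83 in 1bp-ins and 3.85 in 3bp-del, a difference of 0.00 ± 0.21.

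The difference between the alleles was called for 13 of 16396 genes (0.0793%), 11 with a higher (0.0671%) and 2 with a lower effect in 3bp-del (0.0122%), and for 0 of the 23 Sertoli and 0 of the 18 pregranulosa genes by edgeR. Of these, 2 and 4 were at an unadjusted p under 0.05, and DESeq2 called 0 in both lists. The median difference was -0.633 over the Sertoli list and 0.522 over the pregranulosa list. 1bp-ins homozygote replicate 5 stood apart from the other 1bp-ins homozygotes in both. Its summed Sertoli level was 3105 CPM against 824 to 1644 CPM, and its pregranulosa level 315 CPM against 468 to 663 CPM. Without this library the difference was called over all genes for 11 with a higher and 1 with a lower effect. Its part in the spread of these lists was not tested further, and 0 calls do not show equal effects. Over all genes, 1574 differed between the alleles at an unadjusted p under 0.05, and DESeq2 called 113 with a higher and 60 with a lower effect. The 2 with a lower effect, Rpl19-ps11 and Rpl7a-ps8, are named as ribosomal protein pseudogenes, whose reads may be shared with their parent genes. Kmt2d, a histone methyltransferase gene, was at 63.4, 62.6 and 73.5 CPM in 3bp-del heterozygotes and 94.0 to 104 CPM in homozygotes, but at 96.6 to 114 CPM in 1bp-ins heterozygotes and 69.8 to 84.6 CPM in homozygotes. The difference in effect was 1.00 ± 0.10 (edgeR adjusted p = 0.000683). Kmt2d thus moved in opposite directions in the alleles, and their heterozygotes stood further apart (means of 66.5 and 106 CPM) than their homozygotes (97.7 and 77.5 CPM).

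The same crossing was seen for Crebbp, a histone acetyltransferase gene (0.82 ± 0.09, edgeR adjusted p = 0.000899), and for Tet2, which oxidizes methylated cytosine (1.20 ± 0.17, edgeR adjusted p = 0.00866). Xist was at 36.3, 33.3 and 37.97 CPM in 3bp-del heterozygotes and 51.6 to 66.6 CPM in homozygotes, but at 53.3 to 92.6 CPM in 1bp-ins heterozygotes and 41.1 to 55.1 CPM in homozygotes. Within 3bp-del its log2 fold change was 0.72 ± 0.09 (edgeR adjusted p = 0.000246), and the difference between the alleles was 1.33 ± 0.21 (edgeR adjusted p = 0.0249). The call of that difference was lost without 3bp-del heterozygote replicate 1, 2 or 3 (edgeR adjusted p = 0.0993, 0.119 and 0.0534), 3bp-del homozygote replicate 1 or 2 (0.0569 and 0.0517), 1bp-ins heterozygote replicate 2 or 3 (0.0808 and 0.102) or 1bp-ins homozygote replicate 2 or 3 (0.0558 and 0.0572), in the fit over the 10 mutant groups (0.0979) and with the replicate block (0.105).

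In XY gonads the same deletion gave no called gene. Of 15665 genes tested between XY 3bp-del homozygotes and heterozygotes edgeR called 0 (0.0%), with 2981 at an unadjusted p under 0.05. The effect of homozygosity differed between XX and XY for 654 of 16406 genes (3.99%), 415 with a higher effect in XX (2.53%) and 239 with a lower one (1.46%). The count of lower effects was 100 without XX heterozygote replicate 1, 122 without XX heterozygote replicate 3, and 157 and 155 without XY homozygote replicate 2 or 3. Of the 23 Sertoli genes 16 differed, all with a higher effect in XX, and of the 18 pregranulosa genes 6 differed, all with a lower effect in XX. Each of these 6 pregranulosa calls was lost in at least 1 of 22 alternatives. Of the 12 FGF genes 7 differed with a higher effect in XX and 1, Fgfr2, with a lower one.

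Large differences were found for genes whose XY libraries were all above the XX heterozygotes. The difference in effect was 5.50 ± 0.91 for Amh, 5.23 ± 0.56 for BC006965, 4.87 ± 0.57 for the phosphate transporter gene Slc34a2, 4.41 ± 0.56 for Hsd17b3, 4.38 ± 0.43 for Dhh, 4.28 ± 0.24 for Sox10 and 4.04 ± 0.29 for Gdnf, and 3.62 ± 0.18 for Sox9 (edgeR adjusted p = 2.25e-08). Sox9 in XY changed by 0.21 between genotypes and was not called. Fgf9 differed by 2.95 ± 0.24 and Spry4 by 1.67 ± 0.15.

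On the ovary side Wnt4 differed by -1.16 ± 0.19 (edgeR adjusted p = 0.00179) and Bmp2 by -1.07 ± 0.22 (edgeR adjusted p = 0.00953). Both calls were lost in 1 fit over the 10 mutant groups (edgeR adjusted p = 0.0952 and 0.0526). Foxl2 differed by -1.44 ± 0.35 (edgeR adjusted p = 0.0305), but the call was lost without XX heterozygote replicate 1, XY heterozygote replicate 1 or 2, or XY homozygote replicate 2 or 4 (edgeR adjusted p = 0.081, 0.1, 0.0819, 0.0658 and 0.0569), in the fit over the 10 mutant groups (0.13) and with the replicate block (0.0701). Irx3 lost its call of a difference in 11 of 22 alternatives, Lef1 in 9 and Rspo1 in 1. Fst was listed at 0.702 to 11.03 CPM in XY, and its difference of -3.18 ± 1.02 was not called (edgeR adjusted p = 0.114).

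**Figure D5:**
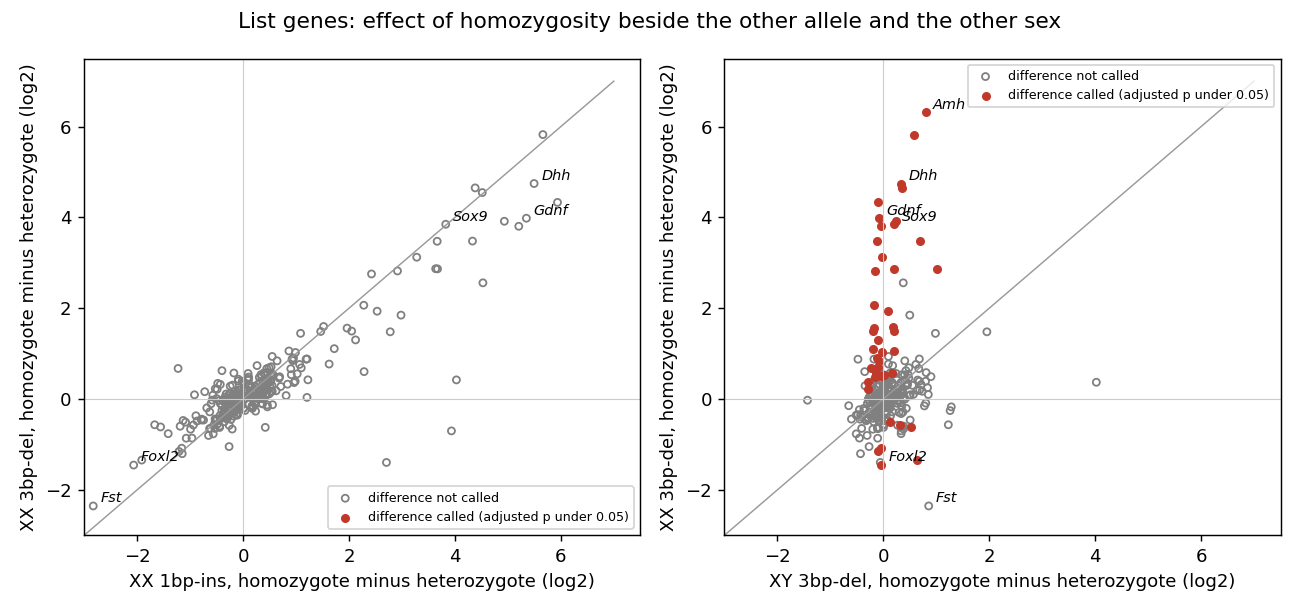
Log2 fold change of homozygotes over heterozygotes in XX 3bp-del (vertical axes) against the same in XX 1bp-ins (left) and XY 3bp-del (right) for the list genes, with the line of equal effect and called differences in red. The axes are cut, so list genes beyond them are not shown, such as the Sertoli gene at 8.77 in 1bp-ins and the adrenal gene at -3.247 in XY. Sox9 lies on the line against 1bp-ins (3.85 and 3.83), while against XY the Sertoli genes rise along the zero of the horizontal axis (Sox9 3.85 and 0.21).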

How the data were processed

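Poly(A) RNA of whole gonad was measured in 8 libraries, and 16 more served the matched comparisons. Per the submitters' processing notes, reads were placed on mm10. For the aligner, the quantifier and strand, the sources used here say nothing. The authors deposited estimated counts per gene symbol, without further scaling as far as the values show, of which 8.0 to 8.82% per library were not whole; these were rounded. The authors also deposited TPM, scaled by gene length, with column sums of 925009 to 938556. Each table has 1 column with no matching sample, headed as a further XX 3bp-del homozygote, which was not used, so that group has n = 5.

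Tests used edgeR 4.0.16 in R 4.3.3 (TMM, filterByExpr, robust quasi-likelihood F test) on the libraries of the groups compared. A call is an adjusted p under 0.05 (Benjamini-Hochberg over all genes tested). Differences between comparisons were interaction terms. Standard errors are the absolute log2 fold change over the square root of F. CPM used TMM factors over the 24 libraries; log2 CPM a prior count of 2. Relative length came from the ratio of counts to TPM. The scripts were tested on simulated data. Between replicates, chi-square per degree of freedom was at least 13.68 over 13 pairs, so no library was counted as deposited more than once.

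The 25 gene lists (307 genes, 304 in the table, 288 tested) and the members were chosen with earlier results of these data known, and lists are described by counts and medians only. Named were Sox9, in each list at most 6 called genes (by fold change) and 3 uncalled ones (by level), the 15 largest rises and 15 largest falls outside the lists without overlap between groups and with a mean log2 CPM of at least 1, the largest differences between comparisons, and the genes with the widest range; predicted genes were left out, and the text gives part of what this rule takes. Members of the tissue lists may be given as values. Alternatives were RLE normalization, no filter, DESeq2 1.42.0, 1 fit over the 10 mutant groups, a length offset per library, replicate blocks, leaving out each library, and log2(TPM + 1) for the length trend. Gene positions are from GENCODE M21, and promoters from RefSeq GRCm38.p6.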

Additional observations from a re-analysis of the deposited data

Results flagged for a closer look

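Of 146 checks of the 5 homozygotes for a library far from its group, 15 stood out (10.3%), where chance gives about 5%. The checks share the same 5 libraries and are not independent, so an excess was not tested. Homozygote replicate 4 was the library in 11 of them. It was the lowest for Inhbb (142 CPM), Slc39a11 (15.8 CPM), Msx1 (33.8 CPM), Rspo1 (33.5 CPM), Tox2 (12.7 CPM), Vgll2 (0.955 CPM) and Csgalnact1 (11.9 CPM), and the highest for Spry1 (49.4 CPM). In mean log2 CPM it was the highest for the surface epithelium list (3.48) and the mesonephros list (3.77) and the lowest for the cholesterol synthesis list (5.62). The other flags were Dusp6, lowest in replicate 5 (76.2 CPM), Cyp11a1, highest in replicate 2 (8.82 CPM), and Ret and Ier2 in replicate 1, which was the lowest for Ret (2.58 CPM) and the highest for Ier2 (62.8 CPM).

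The effect of homozygosity differed from that in XX 1bp-ins for 13 genes and from that in XY 3bp-del for 654 genes, by interaction terms in edgeR.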

How the results depend on the processing

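Leaving out each library gave 1325 to 2698 genes called higher and 1222 to 2726 called lower in homozygotes, the most without homozygote replicate 4, against 2232 and 2094. The other alternatives kept both counts within 1.5 times. Replicate numbers did not pair the libraries (correlations of same-numbered deviations -0.102, 0.119 and -0.056), and with the replicate block 1992 were higher and 1974 lower. Heterozygotes have no replicate 4 or 5, so homozygote replicates 4 and 5 add nothing to the contrast in the block fit. Of 110 called genes that the text follows, 94 kept the call in all 14 alternatives and 16 lost it in at least 1. The fit over the 10 mutant groups lost Wnt4, Msx1, Runx1, Col18a1, Rec8, Ret, Ptch1, Hhip and Mki67 (edgeR adjusted p from 0.0535 for Ret to 0.522 for Hhip), the block lost Lefty2, Hhip and Mki67 (0.0653, 0.0553 and 0.0952), the length offset Runx1 and Gata4 (0.0567 and 0.0526), and RLE Gata4 (0.0536). Losses when 1 library was left out stand beside the genes. Cdh16 changed sign, to -2.46 without homozygote replicate 4 and -2.40 with the replicate block, where that library does not enter the contrast. Cdh16 was at 1.07 without heterozygote replicate 2.

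The difference from 1bp-ins had 5 to 22 higher and 0 to 5 lower effects when 1 library was left out. It had 113 and 60 by DESeq2, 7 and 1 with the replicate block, and 1 lower under both RLE and the fit over 10 groups, and 6 lower with the length offset. The difference from XY had 295 to 523 higher and 100 to 304 lower effects when 1 library was left out, 708 and 459 by DESeq2, and 377 lower in the fit over 10 groups. The cause of these changes was not tested. The length trend stayed between -0.312 and -0.234. Depth limits genes under about 1 CPM, such as Cyp26a1 and BC006965, whose heterozygote level rests on a few reads.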

Other observations

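Other genes whose effect differed between the alleles included Zftraf1, Fam193b, Trim8, an E3 ligase gene, and Brd3, a bromodomain gene. Zftraf1 and Fam193b kept the call in all 22 alternatives, while Brd3 lost it in 13 of 22 (edgeR adjusted p up to 0.179). Trim8 was at 69.8, 70.0 and 75.3 CPM in 3bp-del heterozygotes and 94.2 to 101 CPM in homozygotes, against 85.5 to 91.1 CPM and 66.4 to 85.1 CPM in 1bp-ins. The difference in effect was 0.65 ± 0.09 (edgeR adjusted p = 0.00866), lost without 3bp-del heterozygote replicate 1 or 2 (edgeR adjusted p = 0.0562 and 0.0561). Fam193b was at 24.5 to 26.9 CPM in 3bp-del heterozygotes and 34.9 to 39.7 CPM in homozygotes, against 32.5 to 34.9 CPM and 29.7 to 32.6 CPM in 1bp-ins, a difference of 0.62 ± 0.08 (edgeR adjusted p = 0.00753). For these genes the 3bp-del heterozygotes were below the 1bp-ins heterozygotes without overlap. Whether the heterozygote groups differ through the alleles, litters or handling cannot be told apart with these labels.

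In XY gonads Wnt9a and Smim10l2a, which had lower effects in XX, were at 2.53 to 4.65 CPM and 2.67 to 4.20 CPM, with differences of -1.93 (edgeR adjusted p = 2.83e-05) and -1.91 (edgeR adjusted p = 1.37e-05). Both are from outside the gene lists.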
